A study of Mus musculus with 4 samples.

Results

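The nuclear-encoded subunits of the mitochondrial oxidative phosphorylation complexes were followed in mouse mammary tumours with and without a Cdc25a transgene. The set holds 59 genes, chosen by name as subunits of complexes I to V and cytochrome c, and an array probe carrying the gene's symbol or a synonym was taken as its measurement. Of the 59, 50 had such a probe and all 50 were measured, out of 32661 genes or transcripts measured in all. Uqcrh and Cox6b1 (2 of the 50) were found only through an older name. By complex, 19 measured genes belonged to complex I, 4 to complex II, 6 to complex III together with cytochrome c, 10 to complex IV and 11 to complex V. No probe carried the name of the other 9 listed genes: Ndufb9, Ndufb10, Ndufs1, Ndufs3, Ndufv2, Uqcrc2, Uqcrq, Atp5d and Atp5g3.

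The tumours came from 4 female FVB/N mice aged 26 weeks, and every tumour was at the T1 stage. Tumours of 2 MMTV-cdc25a;MMTV-neu mice (Cdc25a;neu) were each hybridised against the tumour of 1 of 2 MMTV-neu mice (neu), with the dyes swapped on a second array, so that 2 mouse pairs gave 4 arrays. All 4 mice carried the MMTV-neu transgene. Neu is the rodent form of Erbb2, a receptor tyrosine kinase of the epidermal growth factor receptor family, and the mammary tumour virus promoter (MMTV) that drives both transgenes is active mainly in mammary epithelium. Cdc25a is a phosphatase that activates cyclin-dependent kinases. The mouse pair was the replicate (n = 2), so the small number of pairs limits the precision, and the labels do not say how mice were paired.

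Oxidative phosphorylation is the last stage of respiration. Complexes I and II take electrons from NADH and succinate, complex III passes them to cytochrome c, and complex IV hands them to oxygen. Complexes I, III and IV pump protons across the inner mitochondrial membrane as they do so, and complex V, the ATP synthase, makes ATP from the returning protons. Complex II is also the succinate dehydrogenase of the citric acid cycle, and is the complex whose subunits are all encoded in the nucleus. The subunit transcripts are abundant in most tissues.

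The level of the targeted gene was looked at first. The Cdc25a probe gave log2 ratios (Cdc25a;neu over neu) of 0.16 and 0.02 on the arrays of pair 1 and -0.06 and 0.08 on those of pair 2, a mean of 0.05 ± 0.06 (SD, n = 2 pairs; limma adjusted p = 0.781), with both signs among the arrays. The Erbb2 probe gave 0.42, 0.48, 0.76 and 0.93, a mean of 0.65 ± 0.28 (SD, n = 2; limma adjusted p = 0.488), higher in Cdc25a;neu on all 4 arrays but not past the test. The mean log2 signal of the Cdc25a probe was 7.33, near the median of 7.32 over all genes. Whether either probe reads the transcript of its transgene was not tested, so these ratios do not measure transgene expression. An array carried 41534 spots, of which 78.5% to 92.2% exceeded background clearly in green and 82.7% to 87.9% in red. The epithelial markers of the mammary label were present, with all 8 of 8 measured. Their median log2 ratios were -0.14 (pair 1) and -0.11 (pair 2).

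No subunit passed the test between the genotypes, and most of them differed little. The lowest adjusted p among the 50 members was 0.438 and the highest 0.989 (limma, Benjamini-Hochberg over all 32661 genes). Over all genes the share called was 0%, with a lowest adjusted p of 0.222. The mean log2 ratio was under 0.5 in size for 49 of 50 members, the exception being Sdhb, and 0 members exceeded 1. At an unadjusted limma p under 0.05, 3 of 50 members were lower (Ndufa8, Ndufs5 and Sdhb). At that level 7 of 50 were higher (Ndufa1, Ndufa5, Ndufc1, Cyc1, Cycs, Cox7a2 and Cox7c). The shares of all genes were 5.74% lower and 3.92% higher. Both directions were more frequent among the 10887 brightest genes, where 49 of the 50 members fell. Of these 10887 genes, 1199 were lower and 900 higher. When the variance was allowed to follow signal (limma trend and robust), 0 of 50 members and 186 of all 32661 genes stood under that unadjusted level.

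A count of arrays gave the same picture without a test. Lower in Cdc25a;neu on all 4 arrays were 5 of 50 members (10%): Ndufs5, Ndufa8, Sdhb, Uqcrh and Atp5c1. Higher on all 4 arrays were 9 of 50 (18%): Ndufa1, Ndufa4, Ndufa5, Ndufc1, Cyc1, Cox7a2, Cox7c, Atp5f1 and Atp5k. Over all genes the shares were 12.4% lower and 14.7% higher, and over the 10887 brightest genes, among which 49 of the 50 members fell, they were 17.5% and 18.8%. The members' shares thus lay near or below the background for their signal range. The other 36 members took both signs or lacked an array. The counts moved with the processing: with arrays centred on their median in place of loess, 0 members kept a sign on all 4, and with the authors' deposited values 2 were higher. The cause was not tested.

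**Figure D1:**
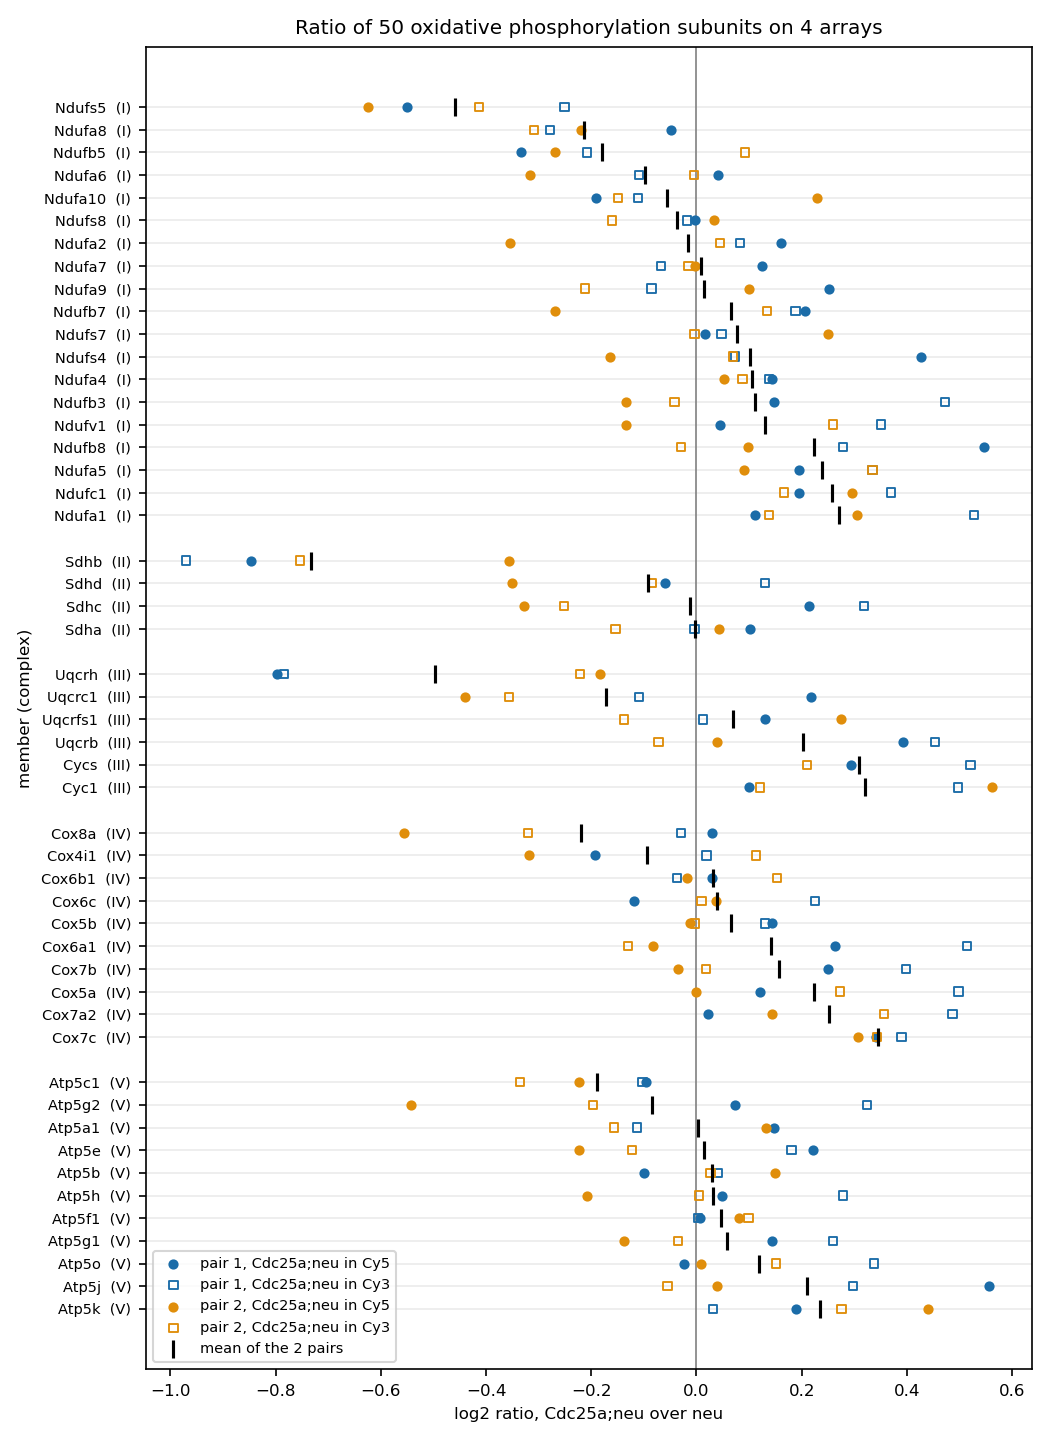
Each row is 1 of the 50 measured subunits, grouped by complex and ordered by mean; the horizontal axis is the log2 ratio of Cdc25a;neu over neu. Blue marks are the arrays of pair 1, orange those of pair 2, filled with Cdc25a;neu RNA in Cy5 and open with it in Cy3, and the black bar is the mean of the pairs; 49 of the 50 means lie within 0.5 of 0, and Sdhb, Uqcrh and Ndufs5 stand lowest with all their arrays below 0.

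The lowest 3 members shared a chromosome. Sdhb, Uqcrh and Ndufs5 had the lowest mean ratios of all 50, and they were also the 3 members that lie on chromosome 4, where an earlier description of these arrays had already noted lower genes. The other 47 members, on other chromosomes, had mean ratios from -0.22 to 0.35. The position comes from the RefSeq annotation of the mouse assembly GRCm38.p6 and was used only to place the genes. None of the 3 passed the test, and their place as the lowest is given as a description. In pair 1 alone they were again the lowest 3. In pair 2 alone Sdhb and Ndufs5 were the lowest, followed by Cox8a at -0.44. Uqcrh, at -0.20 in pair 2, stood above further members too, among them Uqcrc1 (-0.40) and Atp5g2 (-0.37).

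Sdhb, which lies at 140.96 Mb, encodes the iron-sulphur subunit of complex II that carries electrons from the flavoprotein Sdha to the membrane anchor. Its log2 ratios were -0.85 and -0.97 on the arrays of pair 1 and -0.36 and -0.75 on those of pair 2, a mean of -0.73 ± 0.25 (SD, n = 2 pairs), 1.66-fold lower in Cdc25a;neu (limma adjusted p = 0.463). All 4 arrays were below 0, and the array of pair 2 with Cdc25a;neu in Cy5 was the nearest to it. The log2 signal was 9.0 and 8.73 in the Cdc25a;neu tumours against 9.91 and 9.28 in the neu tumours.

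Uqcrh, at 116.07 Mb, encodes the hinge protein of complex III, an acidic subunit at the contact between cytochrome c1 and cytochrome c. Its ratios were -0.80 and -0.78 in pair 1 and -0.18 and -0.22 in pair 2, a mean of -0.50 ± 0.42 (SD, n = 2; 1.41-fold lower; limma adjusted p = 0.543). The arrays of a pair agreed closely, while the pairs stood well apart, with the lower value in pair 1. Its log2 signal was 13.00 and 14.00 in Cdc25a;neu and 13.79 and 14.21 in neu, so the genotypes overlapped. A further probe tied to Uqcrh by its accession gave -0.76 and -0.27 for the pairs.

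Ndufs5, at 123.71 Mb, encodes a small accessory subunit of complex I on the intermembrane space side. It gave -0.55 and -0.25 on the pair 1 arrays, then -0.63 and -0.41 on those of pair 2, a mean of -0.46 ± 0.08 (SD, n = 2; 1.38-fold lower; limma adjusted p = 0.438). The pairs lay close together and all 4 arrays were below 0. The log2 signal was 13.06 and 12.97 in Cdc25a;neu against 13.46 and 13.49 in neu.

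Their neighbours on the chromosome were set beside these values. Neighbours were the 10 measured genes on each side in chromosome order, 20 in all, among genes with a RefSeq position. The median of their mean log2 ratios was -0.24 around Ndufs5, -0.16 around Uqcrh and -0.09 around Sdhb. Of those 20 genes 11, 9 and 10 were lower on all 4 arrays. Around the 47 members on other chromosomes the same median ran from -0.10, around Atp5c1, to 0.05, and 0 to 7 of the 20 were lower on all 4 arrays, against 12.4% of all genes. Each of the 3 subunits was lower than the median of its neighbours in both pairs, and Sdhb the most so. In pair 1 alone the neighbours' medians were -0.16, -0.18 and -0.11 for Ndufs5, Uqcrh and Sdhb, and in pair 2 they were -0.23, -0.08 and -0.08. Over all 893 measured genes with a RefSeq position on chromosome 4 the median was -0.05 in pair 1 and -0.06 in pair 2.

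Among 88 further mitochondrial genes measured, 3 lay on the same chromosome. Atpif1, the inhibitor that blocks the ATP synthase when it would run backwards, lies at 132.53 Mb. It gave -0.72, -0.71, -0.26 and -0.38, with pair means of -0.71 and -0.32 and a mean of -0.52 ± 0.28 (SD, n = 2; limma adjusted p = 0.501), the lowest of its list and lower on all 4 arrays. Atpaf1, an assembly factor of the ATP synthase at 115.78 Mb, close to Uqcrh, gave -0.65 and -0.58 on the pair 1 arrays, then -0.05 and 0.04 on those of pair 2. Like Uqcrh it was far lower in pair 1 than in pair 2. Ndufaf4, a complex I assembly factor at 24.9 Mb, away from the others, gave 0.18 in pair 1 and -0.53 in pair 2.

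**Figure D2:**
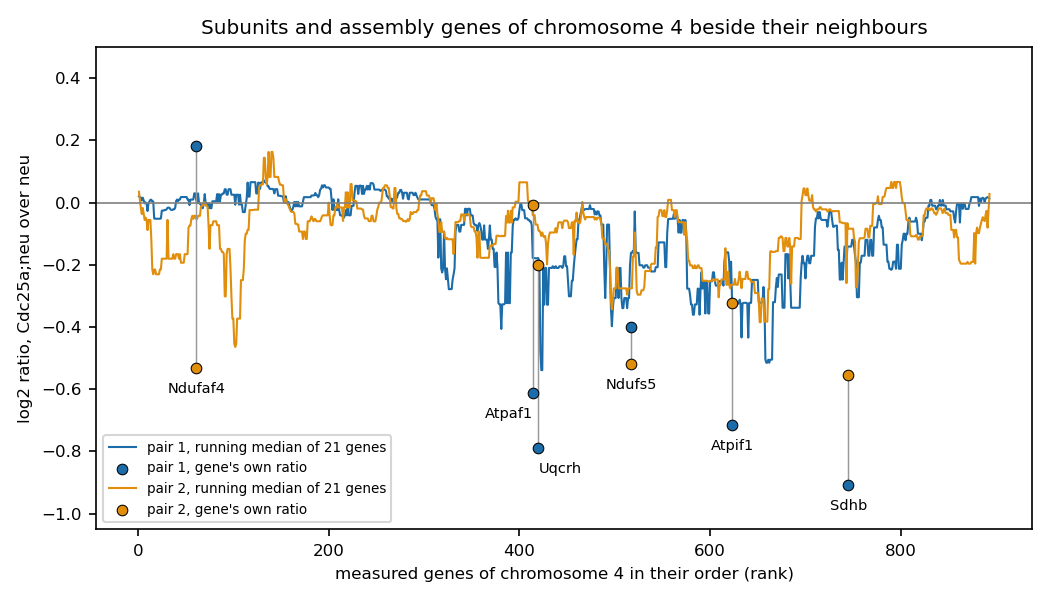
Lines are the running median log2 ratio (Cdc25a;neu over neu) of 21 neighbouring genes along chromosome 4 in pair 1 (blue) and pair 2 (orange), against the rank of the 893 measured genes in their order. Points are the 3 subunits and 3 further mitochondrial genes in each pair; Uqcrh and Atpaf1, which lie near each other, are low in pair 1 and nearer 0 in pair 2, and Sdhb and Ndufs5 are below -0.35 in both.

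The promoters of these members were looked at for the motifs of factors known to act on nuclear respiratory genes. NRF1 (searched as GCGC, then A and any base, then GCGC), GABPA, also known as NRF2 or an ETS factor (searched as CCGGAAG), and YY1 (searched as AAGATGGC) were sought on both strands in RefSeq windows of 300 bases on GRCm38.p6, 250 before to 50 after the start. The table held a window for 48 of the 59 members. Of these 13 (27.1%) held the NRF1 letters, 12 (25%) the GABPA letters and 6 (12.5%) the YY1 letters, against 4.82%, 9.14% and 2.87% of 27025 promoters of the same length. Some matches of different motifs can fall in 1 window, and 27 of the 48 held at least 1, against 15.2% of all promoters. The 150 bases before the start are shown for the 3 chromosome 4 members and for Cox7c, the member with the highest ratio, with motif letters in capitals, to let their promoters be compared:
Sdhb, chr4:140961121-140961270, plus strand: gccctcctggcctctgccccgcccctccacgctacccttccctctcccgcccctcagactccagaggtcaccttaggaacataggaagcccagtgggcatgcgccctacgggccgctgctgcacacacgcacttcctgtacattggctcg
Uqcrh, chr4:116075071-116075220, minus strand: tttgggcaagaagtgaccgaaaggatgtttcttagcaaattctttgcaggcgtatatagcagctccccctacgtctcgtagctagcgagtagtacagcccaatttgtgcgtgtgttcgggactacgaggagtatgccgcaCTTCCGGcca
Ndufs5, chr4:123718187-123718336, minus strand: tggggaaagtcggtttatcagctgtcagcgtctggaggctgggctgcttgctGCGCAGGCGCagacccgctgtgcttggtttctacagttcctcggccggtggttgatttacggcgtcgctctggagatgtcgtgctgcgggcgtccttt
Cox7c, chr13:86046796-86046945, minus strand: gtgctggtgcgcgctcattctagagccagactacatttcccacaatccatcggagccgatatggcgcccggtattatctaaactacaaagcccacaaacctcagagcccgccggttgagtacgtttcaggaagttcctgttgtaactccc

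No motif was held by all 3 of the lowest members, though Sdhb and Uqcrh both held the GABPA letters. Ndufs5 held the NRF1 letters from -98 to -89, counted with the start at 0, and Uqcrh the GABPA letters from -10 to -4 on the other strand. In Sdhb the GABPA letters lay after the start, from 6 to 12, outside the stretch shown, and the Cox7c window held none of the motifs searched. A match describes the letters only and is not evidence that a factor binds. Among the 43 measured members with a window, the 12 with the NRF1 letters had median log2 ratios of 0.08 and -0.13 for pairs 1 and 2, and the 31 without them 0.14 and -0.01. The 11 with the GABPA letters had 0.04 and -0.11, and the 32 without them 0.15 and 0.01. The 6 with the YY1 letters had 0.17 and 0.06, and the 37 without them 0.14 and -0.06. With and without each motif, the higher median was that of pair 1.

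The transcripts of these factors themselves, named here after their values were seen, were near 0 for Nrf1 (0.03 and 0.04 in the pairs) and Gabpa (0.01 and 0.15). The Nrf1 probe was dim, with a mean log2 signal of 6.81 against a median of 7.32 over all genes, and its sign followed the dye. Yy1 gave -0.27 and -0.23 and was lower on all 4 arrays, with a limma adjusted p of 0.482.

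Complex I, which takes electrons from NADH, had medians of 0.12 (pair 1) and -0.05 (pair 2) on the log2 ratio scale over 19 measured members. Of the 19, 2 were lower and 4 higher on all 4 arrays, and 7 took opposite signs in the pairs. Besides Ndufs5 the lowest was Ndufa8, an accessory subunit of the intermembrane space side. It gave -0.05 and -0.28 on the pair 1 arrays, then -0.22 and -0.31 on those of pair 2, a mean of -0.21 ± 0.07 (SD, n = 2). All arrays were below 0, but the first of them barely so. At the other end stood Ndufa1, a small membrane subunit needed for assembly of the complex, with 0.11, 0.53, 0.30 and 0.14 and a mean of 0.27 ± 0.07. Ndufc1, another accessory subunit, gave 0.20, 0.37, 0.30 and 0.17 and a mean of 0.26 ± 0.04. A far dimmer Ndufc1 probe gave -0.0031 and -0.036 for the pairs, and 1 tied to Ndufc1 by accession 0.26 and 0.14. With the probes used, Ndufa1 and Ndufc1 were above 0 on all 4 arrays, and their adjusted p-values were 0.487 and 0.479 (limma). The other 15 members of complex I had mean ratios between -0.21 and 0.26.

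Complex II, succinate dehydrogenase, was the complex with the lowest medians, 0.04 in pair 1 and -0.25 in pair 2 over its 4 subunits, and all 4 were below 0 in pair 2. Sdha, the flavoprotein that holds the succinate site, gave 0.10, -0.0034, 0.04 and -0.15, so that it straddled 0. It was also the dimmest member and the only one outside the brightest genes, with log2 signals of 7.11 and 6.73 in Cdc25a;neu and 7.06 and 6.78 in neu. The membrane anchors Sdhc and Sdhd bind ubiquinone. Sdhc gave 0.21 and 0.32 on the pair 1 arrays, then -0.33 and -0.25 on those of pair 2, one of the largest differences between the pairs. Sdhd gave -0.06 and 0.13 on the pair 1 arrays, then -0.35 and -0.08 on those of pair 2. Apart from Sdhb, no subunit of complex II kept its sign on all 4 arrays.

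Complex III with cytochrome c gave medians of 0.18 and 0.03 in the pairs. Cyc1, the cytochrome c1 that hands electrons on, gave 0.10 and 0.50 on the pair 1 arrays, then 0.56 and 0.12 on those of pair 2, a mean of 0.32 ± 0.03 (SD, n = 2; limma adjusted p = 0.448). It was higher on all 4 arrays, and in both pairs the arrays of opposite dye differed by more than the pairs did. Cycs, the mobile carrier between complexes III and IV, gave 0.29 and 0.52 in pair 1 and 0.21 on the remaining array of pair 2, where the other spot carried an outlier flag. Its mean of 0.31 ± 0.14 (SD, n = 2) therefore rested on 3 arrays, and a further probe tied to Cycs by accession gave 0.30 and 0.23. Uqcrc1, a core subunit without a redox centre, gave 0.22 and -0.11 on the pair 1 arrays, then -0.44 and -0.36 on those of pair 2. With Uqcrh it was the low end of the complex, with a mean of -0.17 ± 0.32, and a further probe gave 0.17 and -0.26.

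Complex IV, cytochrome c oxidase, had the highest median in pair 1, at 0.20, and a median of 0.01 in pair 2. Of its 10 measured subunits 0 were lower and 2 higher on all 4 arrays. These were Cox7c and Cox7a2, small nuclear-encoded subunits in the membrane part. Cox7c gave 0.34, 0.39, 0.31 and 0.34, and its mean of 0.35 ± 0.03 (SD, n = 2; 1.27-fold higher; limma adjusted p = 0.448) was the highest of all members, with little spread over the arrays. With the authors' deposited values it was 0.16, below Cyc1 at 0.35. Its log2 signal was 13.15 and 13.02 in Cdc25a;neu against 12.79 and 12.70 in neu. Cox7a2 gave 0.02, 0.49, 0.14 and 0.36, the higher value of each pair coming with Cdc25a;neu RNA in Cy3. At the low end Cox8a, a small membrane subunit, gave 0.03, -0.03, -0.56 and -0.32, near 0 in pair 1 and below it in pair 2. Cox4i1, the ubiquitous form of the regulatory subunit, gave -0.19, 0.02, -0.32 and 0.11, the sign following the dye.

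Complex V, the ATP synthase, gave medians of 0.16 and -0.01. Atp5c1, the gamma subunit of the rotating stalk, gave -0.10, -0.10, -0.22 and -0.34, a mean of -0.19 ± 0.13 (SD, n = 2; limma adjusted p = 0.544), the only member of the complex lower on all 4 arrays. Atp5k, the membrane subunit e, gave 0.19, 0.03, 0.44 and 0.28, a mean of 0.23 ± 0.18, and Atp5j, coupling factor of the peripheral stalk, gave 0.56, 0.30, 0.04 and -0.06. The latter was well above 0 in pair 1 and near it in pair 2. Atp5g2, a gene of the proton-carrying c-ring, gave 0.07 and 0.32 on the pair 1 arrays, then -0.54 and -0.20 on those of pair 2. Brighter probes tied to Atp5g2 by accession gave -0.05 and -0.06, and -0.03 and -0.10, for the pairs, so its large pair difference was seen with 1 of 3 probes. The c-ring is encoded by several genes for the same mature protein, and hybridisation between their transcripts was not tested.

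Over the whole set the median ratio differed more between the pairs than its mean stood from 0. The median over the 50 members was 0.13 in pair 1 and -0.01 in pair 2, with a median of the means of 0.04 ± 0.10 (SD between pairs, n = 2), against 0.0050 in both pairs over all genes. In pair 1 12 of 50 members were below 0 and in pair 2 30 of 50. Both signs were the same and above 0 in 17 members, the same and below 0 in 9, and opposite in 24. The arrays of each pair gave similar medians, 0.12 and 0.13 in pair 1 and -0.01 and -0.0040 in pair 2. Each complex had its higher median in pair 1.

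**Figure D3:**
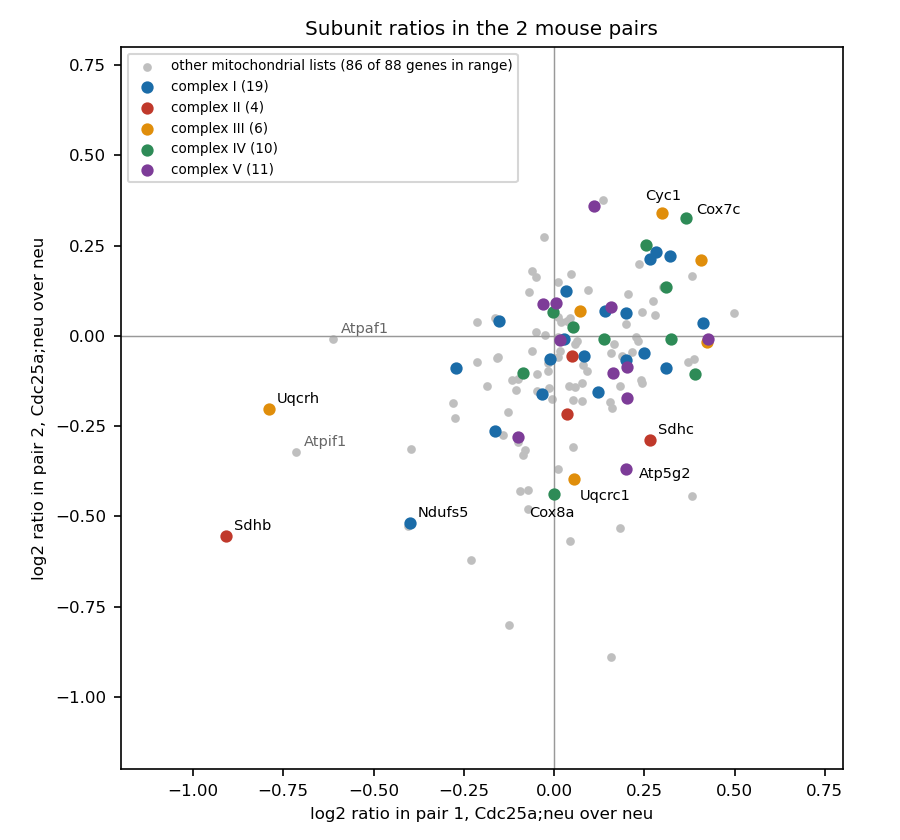
Each coloured point is 1 of the 50 subunits, with its log2 ratio (Cdc25a;neu over neu) in pair 1 on the horizontal and in pair 2 on the vertical axis; grey points are genes of the other mitochondrial lists, 86 of 88 of them within the range drawn. Sdhb, Uqcrh and Ndufs5 lie apart at the lower left, and the bulk of the subunits lies to the right of 0 in pair 1 and around 0 in pair 2.

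Several lists of tissue markers measured on the same arrays differed between the pairs, and others did so little. Skeletal muscle markers, 10 of 10 measured, had a median ratio of 0.05 in pair 1 and -0.99 in pair 2. Their mean log2 signal was 8.18 in the neu tumour of pair 2 and between 6.98 and 7.0 in the other 3 tumours. White fat markers, 8 of 8 measured, were at -0.56 and -1.31, with mean log2 signals of 8.75 and 9.23 in neu and 7.72 and 7.73 in Cdc25a;neu. Fibroblast markers, 4 measured, were at -0.37 in pair 1 and 0.69 in pair 2, and macrophage markers, also 4, at -0.27 and 0.41. The fibroblast markers were split in pair 2, with Col1a1 and Col1a2 at 1.60 and 1.32 but Col3a1 and Pdgfra at 0.07 and -0.09. Lymphocyte markers were at 0.01 and 0.09, endothelial markers at 0.08 and 0.13, and basal or myoepithelial markers at -0.04 and 0.16. The medians of the epithelial list differed least, but its genes were mixed, with 2 lower and 1 higher on all 4 arrays. Krt19 gave -0.40 and 0.36 and Epcam -0.17 and -0.51 for the pairs, while Krt8 gave 0.16 and 0.14 and Cdh1 -0.12 and -0.18. The part of these marker lists in the subunit ratios was not tested. In whole tumours fewer cells of a type and less RNA per cell cannot be told apart.

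Saturation did not touch the set. Saturated spots numbered 4 to 28 an array in the green channel and 22 to 48 in the red channel, and 0 of the members' probes were saturated on any array. All 50 were well above background in both channels on 4 arrays. The median log2 signal of the members was 12.12 against 7.32 over all genes. No member had kept probes that differed by over 0.5 in mean log2 ratio.

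Of the 9 subunits with no probe under their name, 6 had a probe tied to them by its accession. These were Ndufb9, Ndufs1, Uqcrc2, Uqcrq, Atp5d and Atp5g3, with mean log2 ratios from -0.01 to 0.11, inside the range of the other members. The Uqcrq probe is called Uqcrb on the array, while its accession names Uqcrq. Ndufb10, Ndufs3 and Ndufv2 were not analysed here.

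In their medians, other nuclear-encoded subunits showed the same pattern by pair. Of 18 further structural subunits, 15 were measured, with pair medians of 0.18 and -0.05, 1 lower and 3 higher on all 4 arrays, and 0 called by limma. The most shifted were Ndufb4, an accessory subunit of complex I, with 0.50 in pair 1 and 0.06 in pair 2, and Ndufab1, its acyl carrier protein, with 0.30 and 0.14. The 13 genes of mitochondrial DNA had no probe under their symbols. Probes that the array describes as cytochrome oxidase subunit 2 (array name AF378830) and ATPase subunit 6 (array name AF093677), singled out after their values were seen, gave -0.17 and -0.04, and 0.36 and 0.39, for the pairs. The former took both signs, with -0.53, 0.19, -0.17 and 0.10 on the 4 arrays, the sign following the dye. The latter was above 0 on all 4 arrays (limma adjusted p = 0.438). Both of these probes had their higher value in pair 2, unlike the subunit medians.

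Tissue isoforms, 6 of 7 measured, had medians of 0.03 and -0.16, with 1 lower and 0 higher on all 4 arrays and 0 called, and they held the largest mean ratio of the mitochondrial lists. Cox8b, the isoform of heart, skeletal muscle and brown fat, gave -1.23 and -0.83 on the pair 1 arrays, then -2.06 and -1.58 on those of pair 2, a mean of -1.42 ± 0.56 (SD, n = 2; limma adjusted p = 0.472). It was lower on all 4 arrays, as were 5 of the 8 white fat markers, while 1 of these (Lipe) was higher on all 4 and 2 (Lep and Retn) took both signs. Cox8b stands in the brown fat marker list too, which had medians of -0.16 and -0.52 over 4 genes. Of that list Cox8b and Ucp1 were lower on all 4 arrays, and Cidea and Elovl3 took both signs. Cox7a1, also a muscle and heart isoform, gave 1.10 and 1.25 on the pair 1 arrays, then -0.45 and -0.27 on those of pair 2, so the pairs went opposite ways. The part of other tissues in both was not tested. The other 4 measured isoforms had mean ratios from -0.13 to 0.02.

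Assembly factors, 25 of 37 measured, had medians of 0.01 and -0.13, with 5 lower and 2 higher on all 4 arrays and 0 called. Acad9, needed to assemble complex I, gave -0.39, -0.42, -0.64 and -0.42, a mean of -0.47 ± 0.09 (SD, n = 2; limma adjusted p = 0.438). It was the lowest of the list and even over the arrays, ahead of Atpaf1.

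Regulators of mitochondrial biogenesis, 16 of 17 measured, had medians of -0.02 and -0.09, with 2 lower and 1 higher on all 4 arrays and 0 called. Myc, a growth regulator that also acts on mitochondrial genes, gave 0.16 in pair 1 and -0.89 in pair 2. Esrra, a nuclear receptor that drives respiratory genes, gave 0.04 and -0.57. In both the pairs differed more than the mean stood from 0.

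The citric acid cycle and pyruvate dehydrogenase genes, 17 of 18 measured, had medians of -0.02 and -0.07, with 4 lower and 2 higher on all 4 arrays and 0 called. The most shifted were Pdhx, the subunit that binds the dihydrolipoamide dehydrogenase of the pyruvate dehydrogenase complex, with -0.16, -0.30, -0.65 and -0.59, and Pdha1, its catalytic alpha subunit, with -0.29, -0.50, -0.43 and -0.20. Both were below 0 on every array, with limma adjusted p-values of 0.517 and 0.448. Inner membrane carriers with the ATP synthase inhibitor, 9 of 10 measured, had medians of -0.07 and -0.13, with 3 lower on all 4 arrays, none (0) higher and 0 called. Besides Atpif1 the largest was Ucp1, the brown fat uncoupling protein, with -0.12 and -0.80, from a dim probe that was well above background in both channels on only 2 of the 4 arrays.

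**Figure D4:**
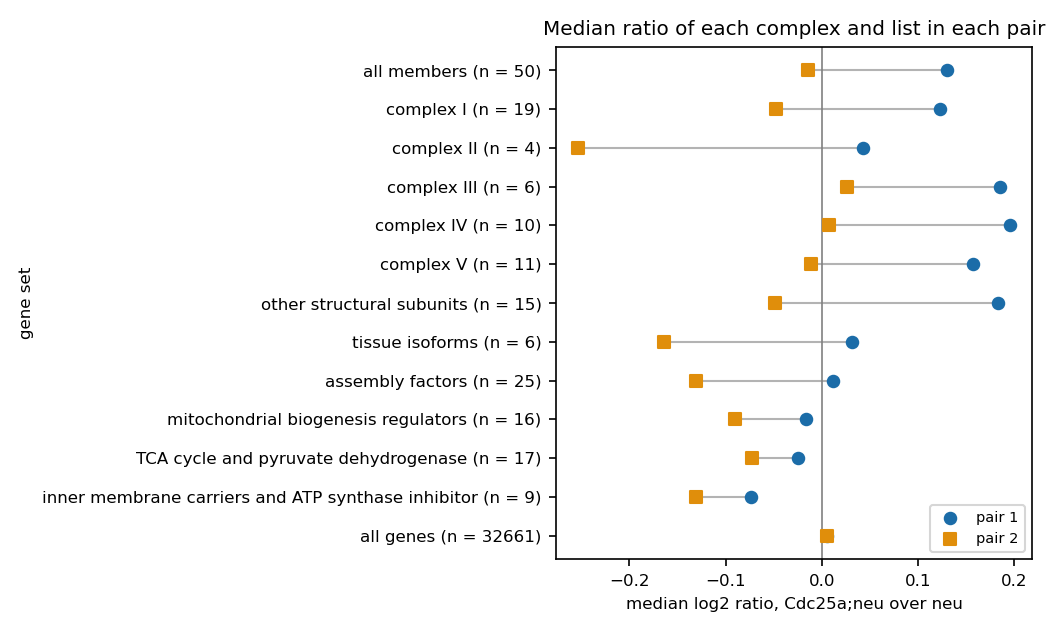
The median log2 ratio (Cdc25a;neu over neu) of each complex and of each further mitochondrial list is drawn for pair 1 (circles) and pair 2 (squares), with the number of measured genes beside each name. Every complex and mitochondrial list has its higher median in pair 1; complex II has the lowest value, -0.25 in pair 2, and complex IV the highest, 0.20 in pair 1.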

How the data were processed

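The deposited scanner files hold, per the file headers, each spot's intensity and local background in both channels, background-subtracted processed signals and the log10 ratio of red over green. The submitters' processing notes name Feature Extraction 7.2, and the headers 7.5.1. The authors' deposited value table was found to hold a natural log ratio of red over green (slopes of 2.27 to 2.29 on the scanner's log10 ratio against 2.30; column medians 0.0208, 6e-04, 0.0208 and 0.0079). How it was centred is not stated, and it entered as an alternative only.

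Intensities were corrected by normexp (offset 50) and normalized by loess, with controls at weight 0 and outlier flags left out. Probes clearly above background in 1 channel or more on 2 or more arrays were kept (37176 of 41174), and a gene took its brightest kept probe. Probes were named by accession (18405), symbol (1502) or synonym (936) through RefSeq, and otherwise kept the array's name. Swaps were turned and both arrays of a pair averaged. The mean log2 ratio of the pairs was tested against 0 with limma 3.58.1 in R 4.3.3 (eBayes, two-sided, Benjamini-Hochberg at 0.05). SDs measure the spread between 2 pairs, and the p-values weigh that spread with a variance pooled over all genes. Signals are separate channels after loess and Aquantile. The procedure was tested on simulated data. Named are each complex's 2 lowest and 2 highest members, the 3 with the largest pair difference, chromosome 4 members and the 2 most shifted genes of each other list. Members and lists were chosen with earlier results of these data known.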

Additional observations from a re-analysis of the deposited data

How the results depend on the processing

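The median ratio of all members stayed between -0.03 and 0.10 over the alternatives and between -0.01 and 0.13 with an array or pair left out, and Sdhb, Uqcrh and Ndufs5 stayed the 3 lowest members except where only exact symbols were matched, which leaves out Uqcrh, and in pair 2 alone. Adding probes matched by accession was chosen after seeing the data and added no call. With median centring in place of loess, 933 genes and 1 member, Sdhb (-0.68, limma adjusted p = 0.00203), were called, 0 members were lower and 0 higher on all arrays, and Sdhc turned to 0.037. With the 4 arrays as samples and the pair as a random block, 911 genes and 3 members were called by limma (Ndufs5 at an adjusted p of 0.0388, Sdhb at 0.0324 and Cox7c at 0.0170). That fit counts dye swaps of the same extracts as samples. Separate channels with no replicate block called 0 genes by limma, with 1038 at an unadjusted p under 0.05. In the authors' deposited table members higher on all arrays numbered 2, the median of complex III was 0.011, that of complex I turned to -0.0043, that of complex V to -0.071 and that of all members to -0.034, and Sdha turned to 0.046. There Cox7c was at 0.16, Cox7a2 at 0.12 and Atp5j at 0.072. With the mean of all kept probes Ndufc1 was at 0.12, and with the scanner's processed signals Sdhc turned to 0.011. For these the cause was not tested.

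With 1 array left out, 6 to 9 members were lower and 9 to 17 higher on all remaining arrays (14 without the second array of pair 2), a count over fewer arrays. Without pair 1, 17 were lower and 12 higher, and without pair 2, 8 and 29, as values with no test. The median of complex V was -0.012 without pair 1 and 0.16 without pair 2. Sign changes were followed for the named members only, while 24 of all 50 members took opposite signs in the 2 pairs. With a pair left out (without pair 1, then without pair 2) they were those of Sdha (-0.056, 0.050), Sdhc (-0.29, 0.27), Sdhd (-0.22, 0.035), Uqcrc1 (-0.40, 0.054), Cox8a (-0.44, 0.00066), Atp5g2 (-0.37, 0.20) and Atp5j (-0.0078, 0.43). With an array left out they were Sdhc without the first array of pair 1 (0.015) or of pair 2 (0.0072), Sdha without the second array of pair 1 (0.023) or of pair 2 (0.046), and Cox4i1 (0.013) and Atp5g2 (0.0013) without the first array of pair 2. No paired fit beyond this was made, since each ratio already sets 1 Cdc25a;neu tumour against 1 neu tumour.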
